A study of Mus musculus with 19 samples.

Results

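The cells described here are the GFP-negative fraction of a mouse embryonic stem (ES) cell culture that had been kept with AICAR in differentiation medium, compared with a parallel culture that reached day 15 without AICAR. They were chosen by title: 1 library of AICAR GFP-negative cells and 1 library of untreated day-15 cells, 2 of the 19 RNA sequencing libraries of the series. All libraries come from 1 reporter line, Rex1 GFPd2, in which a destabilised green fluorescent protein (GFP) reports activity of the naive-state gene Zfp42, also called Rex1. Both cultures started from cells that had differentiated for 2 days in serum-containing medium and had then been sorted as double-negative, lacking both GFP and SSEA1, a carbohydrate antigen found on undifferentiated mouse cells. The untreated cells stayed in that medium to day 15, and the other cells received AICAR, a nucleoside that is converted into an AMP analogue and activates the energy-sensing kinase AMPK, to the same day. The labels give no dose of AICAR.

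For context the AICAR culture was also sequenced without fractionation (1 library, called whole here) and as a GFP-positive fraction (3 libraries). The rest are 1 undifferentiated library grown in medium with LIF plus MEK and GSK3 inhibitors, 2 day-2 libraries (one of them titled as the double-negative sort), 8 lines grown from picked GFP-positive colonies and 2 lines grown from sorted GFP-positive cells. Titles name the AICAR fractions by GFP, while the sorting field of the same labels says that these samples were not sorted. The titles were followed. The labels do not say whether libraries of a group came from separate cultures, so a spread between them may be technical. With 1 library on each side, the comparison with untreated day 15 has no replicate check and no test. Its ratios carry exact 95% intervals that cover counting error only.

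The early mouse embryo sets aside the primitive endoderm beside the naive epiblast, under transcription factors such as Gata6, Gata4, Sox17 and Sox7. Primitive endoderm gives rise to visceral endoderm, which takes up and transports nutrients and secretes serum proteins, and to parietal endoderm, which deposits a thick basement membrane of laminin and type IV collagen. The epiblast meanwhile leaves the naive state through a formative state that still expresses Pou5f1 but no longer relies on naive factors such as Zfp42, Nanog and Esrrb.

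Depth was 5771671 reads in genes for the GFP-negative library, the lowest of the 19, and 7712882 for untreated day 15. The other libraries ranged up to 14233421 reads. Levels are given as CPM, the reads of a gene scaled to the same total of reads in genes for every library. Among 9493 genes with at least 100 reads in 1 of the 2 libraries, 1050 (11.1%) were more than 2-fold higher in the GFP-negative library and 1831 (19.3%) were more than 2-fold lower, and 106 (1.12%) and 636 (6.7%) passed 8-fold. Members of gene lists were counted from 50 reads, where 11.4% of 11352 genes were higher and 21.2% lower, with a median log2 ratio of 0.025. These shares are the background for the counts below. A member near 0 in 1 library can reach 50 reads only through the other library. Where many members stayed under 50 reads, the counts are partly set by this minimum.

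The GFP-negative library combined high levels of endoderm transcription factors and of the laminin chains with a second set of transcripts of the pluripotent epiblast, and it held little of the fibrillar collagens and keratins of the untreated culture. Of 13 endoderm transcription factors measured, 10 were more than 2-fold higher than in untreated day-15 cells, and of 18 general pluripotency genes 17 were. All 24 mesenchymal matrix genes and all 14 genes of stratified epithelium were more than 2-fold lower. A bulk library cannot tell fewer cells of a type from less RNA per cell, so each list describes the whole fraction and not single cells. The whole AICAR culture held more of the matrix and stratified epithelium lists than either of its fractions. The cause of this was not tested, and whether the GFP-negative library stands for all GFP-negative cells of that culture is not known.

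Lama1, the laminin alpha chain of the early embryonic basement membrane, stood at 16418 CPM in the GFP-negative library and 4174 in untreated day-15 cells, a 3.93-fold difference with a counting interval of 3.88 to 3.98. It was 4462 CPM in the whole AICAR culture, 85.0, 311 and 3341 in GFP-positive replicates 1, 2 and 3, 110 in undifferentiated cells and 57.1 to 274 in the colony lines (median 101). The GFP-negative library thus held the highest Lama1 level of the 19, and 1.642% of its reads came from this gene. Sox7, an endoderm transcription factor, had 784 reads (136 CPM) in the GFP-negative library and 238 (30.9 CPM) in untreated cells, a ratio of 4.40 (3.80 to 5.11). Undifferentiated and day-2 sorted cells had 0 reads of Sox7, and no colony line exceeded 0.566 CPM.

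Col4a1, a chain of type IV collagen, was high in both libraries, at 19053 CPM in the GFP-negative cells and 14561 in untreated cells, and its ratio of 1.31 (1.30 to 1.32) did not pass 2-fold. The whole AICAR culture had 6730 CPM of Col4a1 and the GFP-positive replicates 158, 458 and 4598. Per length of transcript without the 3′ UTR, on the RPKM scale of the authors, Col4a1 ranked 4th among all genes of the GFP-negative library (3753 RPKM), Lama1 34th (1817), Klf4 342nd and Sox7 1018th (118). Klf4, a Krüppel-like factor used both in naive ES cells and in differentiated epithelia, was 539 CPM against 155, a ratio of 3.47 (3.25 to 3.71). Its level was 227 CPM in undifferentiated cells, 279 in the whole culture, 341, 291 and 304 in GFP-positive cells and 120 to 180 in colony lines, all below the GFP-negative library.

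**Figure D1:**
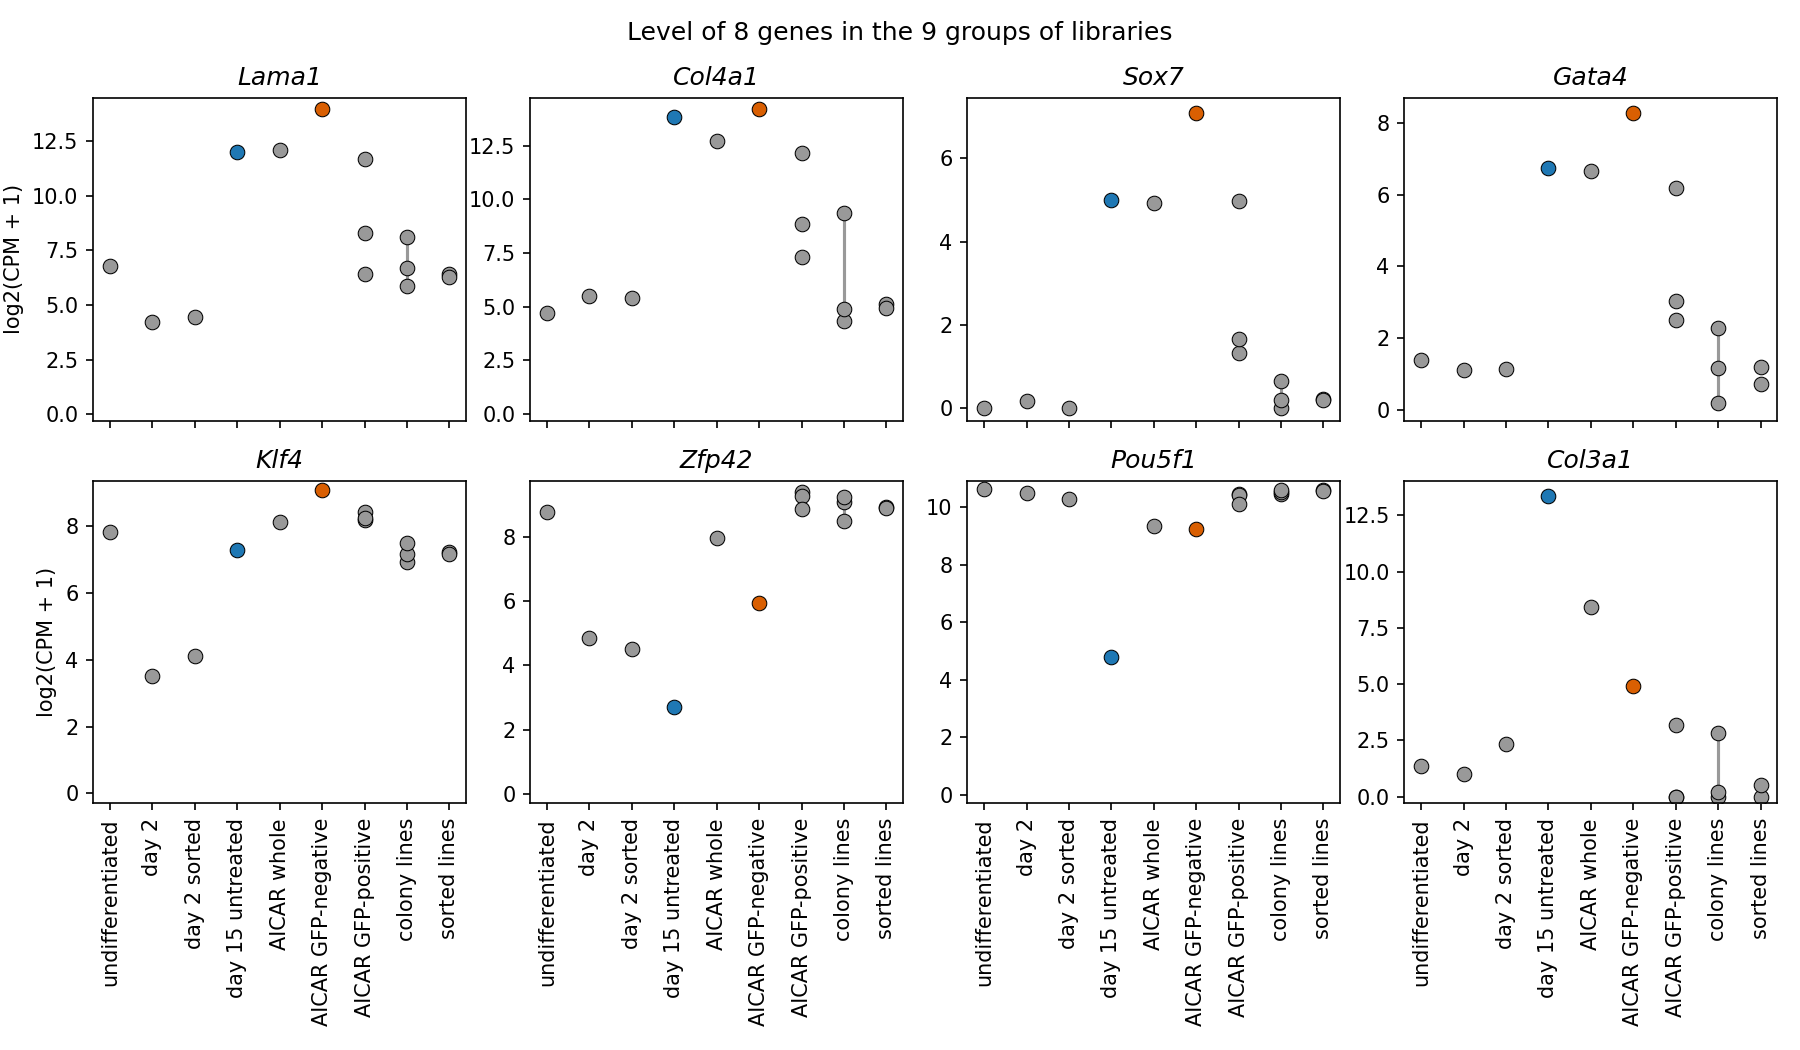
Level of 8 genes, as log2(CPM + 1), in the 9 groups of libraries. Each point is 1 library, except for the colony lines, where the lowest, median and highest of 8 are joined by a line, and the AICAR GFP-negative library is orange and untreated day 15 blue. Lama1, Col4a1, Sox7, Gata4 and Klf4 are highest in the GFP-negative library, Zfp42 lies between untreated day 15 and the GFP-positive cells, and Col3a1 is far below untreated day 15.

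Endoderm transcription factors were higher in 10 of 13 measured members (median log2 ratio 1.51), 1 was lower and 2 stayed within 2-fold. Gata4, a zinc-finger factor of primitive endoderm, had 313 CPM in the GFP-negative library against 107 in untreated cells, 2.93-fold (2.70 to 3.18). Its partner Gata6 had 263 against 92.3, 2.85-fold (2.61 to 3.12). Sox17 was at 93.0 against 32.0 CPM, 2.91-fold (2.49 to 3.39). The whole AICAR culture had 99.4, 96.4 and 37.0 CPM of these 3 factors, so the GFP-negative library was 3.14-fold, 2.73-fold and 2.52-fold above it as well.

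Foxa2, a forkhead factor of endoderm, was at 60.8 CPM against 14.1, 4.30-fold (3.46 to 5.39), and at 0.784, 2.81 and 9.68 CPM in the GFP-positive libraries. Snai1, a repressor of E-cadherin that is expressed in parietal endoderm, had 116 against 41.9 CPM, 2.77-fold (2.42 to 3.17), with 1.02, 4.36 and 25.2 in GFP-positive cells. Foxa1 went the other way, with 0 reads in the GFP-negative library and 63 reads (8.17 CPM) in untreated cells, which makes it at least 15.7-fold lower. Eomes, Foxq1 and Cited1 were 2.23-fold to 4.15-fold higher than in untreated cells. Klf6 and Lhx1 were within 2-fold, at 116 against 130 and 4.50 against 6.48 CPM. Hnf4a, Hhex and Gsc stayed under 50 reads in both libraries.

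Promoter sequences of 3 higher members are shown. Foxa2 and Snai1 were picked because they hold matches to motifs that GATA and SOX factors are known to bind. Pdgfra, a receptor of the primitive endoderm lineage, holds none. Whether any GATA or SOX factor acts on these promoters was not tested. Each printed sequence is the stretch of 250 bases before an annotated start, from RefSeq on GRCm38.p6, in lower case with motif matches in capitals. They lie at chr2:148045465-148045714 on the minus strand, chr2:167537945-167538194 on the plus strand and chr5:75152001-75152250 on the plus strand, none overlapping an annotated exon.
Foxa2: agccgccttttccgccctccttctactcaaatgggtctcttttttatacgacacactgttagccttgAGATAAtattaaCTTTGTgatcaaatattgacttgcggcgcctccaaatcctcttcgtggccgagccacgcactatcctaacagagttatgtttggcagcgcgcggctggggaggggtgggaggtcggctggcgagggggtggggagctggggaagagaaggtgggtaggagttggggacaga
Snai1: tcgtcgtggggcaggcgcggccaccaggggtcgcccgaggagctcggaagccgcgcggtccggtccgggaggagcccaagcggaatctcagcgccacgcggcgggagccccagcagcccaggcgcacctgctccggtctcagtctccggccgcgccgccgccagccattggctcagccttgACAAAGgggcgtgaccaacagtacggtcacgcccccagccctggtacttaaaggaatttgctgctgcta
Pdgfra: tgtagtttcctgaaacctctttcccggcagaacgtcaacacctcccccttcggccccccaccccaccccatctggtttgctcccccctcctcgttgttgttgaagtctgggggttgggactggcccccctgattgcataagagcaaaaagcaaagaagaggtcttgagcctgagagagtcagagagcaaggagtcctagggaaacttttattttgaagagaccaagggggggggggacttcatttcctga
RefSeq gives 3 starts for Foxa2, and the stretches before the other 2 held no match. The stretch before Lamb1, another higher member, also held none and is not shown. The Foxa2 window shown has a GATA match that begins 183 bases before the start, and a SOX match on the other strand that begins 171 bases before it. The Snai1 window has a SOX match 69 bases before the start. Motifs were searched on both strands in windows from 250 bases before to 50 bases after each start. The GATA motif was AGATAA. The SOX motif was either AACAAT, its first spelling, or the second spelling ACAAAG. The motif of KLF proteins was GGGTGTG. The octamer of POU factors was ATGCAAA. Of the 20 endoderm genes more than 2-fold higher, 11 matched the promoter table by symbol, with 16 windows, of which 2 (12.5%) held the SOX motif, 1 (6.25%) the GATA motif, 0 the KLF motif and 1 (6.25%) the octamer. Among all 32851 windows the shares were 27.03%, 11.18%, 7.95% and 4.63%. The SOX, GATA and KLF shares among the higher endoderm genes were below these, and the octamer share rests on 1 window. A match describes letters and does not show binding.

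Basement membrane and parietal endoderm genes filled 7.66% of the reads of the GFP-negative library and 4.58% of untreated day 15. Of 22 members, 6 were more than 2-fold higher, 2 lower and 14 within 2-fold, with a median log2 ratio of 0.38. All 3 chains of laminin-111 were among the higher members. Beside Lama1, described above, Lamb1 had 10218 CPM against 3301, 3.10-fold (3.05 to 3.14), and Lamc1 had 9579.5 against 2655, 3.61-fold (3.55 to 3.67). The other higher members were Srgn, a proteoglycan core protein (476 against 132 CPM, 3.61-fold), Pdgfra (481 against 196, 2.46-fold) and Thbd, thrombomodulin, a marker of parietal endoderm (139 against 57.0, 2.43-fold).

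Collagen IV and its processing genes were close in the 2 libraries. Col4a2 was at 7730.5 against 8583 CPM, Sparc, a collagen-binding matrix protein, at 3275 against 2911 and Nid1, which links laminin to collagen IV, at 1174 against 1201. Serpinh1, the collagen chaperone, had 2636 against 1498 CPM, 1.76-fold. Pth1r, a hormone receptor of parietal endoderm, had 392 against 198 CPM, 1.98-fold (1.85 to 2.11), just inside the 2-fold limit. The 2 lower members, Vim (409 against 1796 CPM) and Fbln1 (27.9 against 292 CPM), are also expressed in mesenchyme, whose collagens were lower still.

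Visceral endoderm genes went both ways. Of the apical uptake machinery, 3 members were higher than in untreated cells: Amn, the membrane anchor of cubilin, at 27.2 against 1.17 CPM (23.3-fold, 12.0 to 51.9), Cubn itself at 175 against 56.1 (3.11-fold) and Lrp2 (megalin) at 517 against 95.6 (5.41-fold). Ihh, a secreted hedgehog ligand of visceral endoderm, was at 33.6 against 4.15 CPM (8.10-fold). The adaptor Dab2 stayed within 2-fold, at 260 against 177 CPM. Several secreted serum proteins were lower: Afp had 4 reads against 244 (0.693 against 31.6 CPM, 45.6-fold, 17.6 to 169), Apob 4.68 against 53.3 CPM (11.4-fold), Rbp4 4 reads against 111 (20.8-fold) and Ttr 1.21 against 11.0 CPM (9.09-fold). In all, 4 of 15 members were higher, 8 lower and 3 within 2-fold, with a median of -1.11. The secreted apolipoprotein gene Apoe was within 2-fold, at 225 against 174 CPM, as was Mttp, which loads lipid onto apolipoprotein B, at 14.2 against 23.3.

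Within the AICAR culture the uptake receptors Cubn and Amn were highest outside the GFP-negative library. Cubn was at 763 CPM in the whole culture and 680 in GFP-positive replicate 3, both above the 175 CPM of GFP-negative cells, while GFP-positive replicates 1 and 2 had 106 and 98.1. Amn followed the same order with 78.2, 62.2, 27.2, 8.16 and 6.39 CPM. Apob had 27.4 CPM in the whole culture and 30.4 in replicate 3 against 4.68 in GFP-negative cells. Lama1, Gata4 and Gata6 were instead highest in GFP-negative cells.

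**Figure D2:**
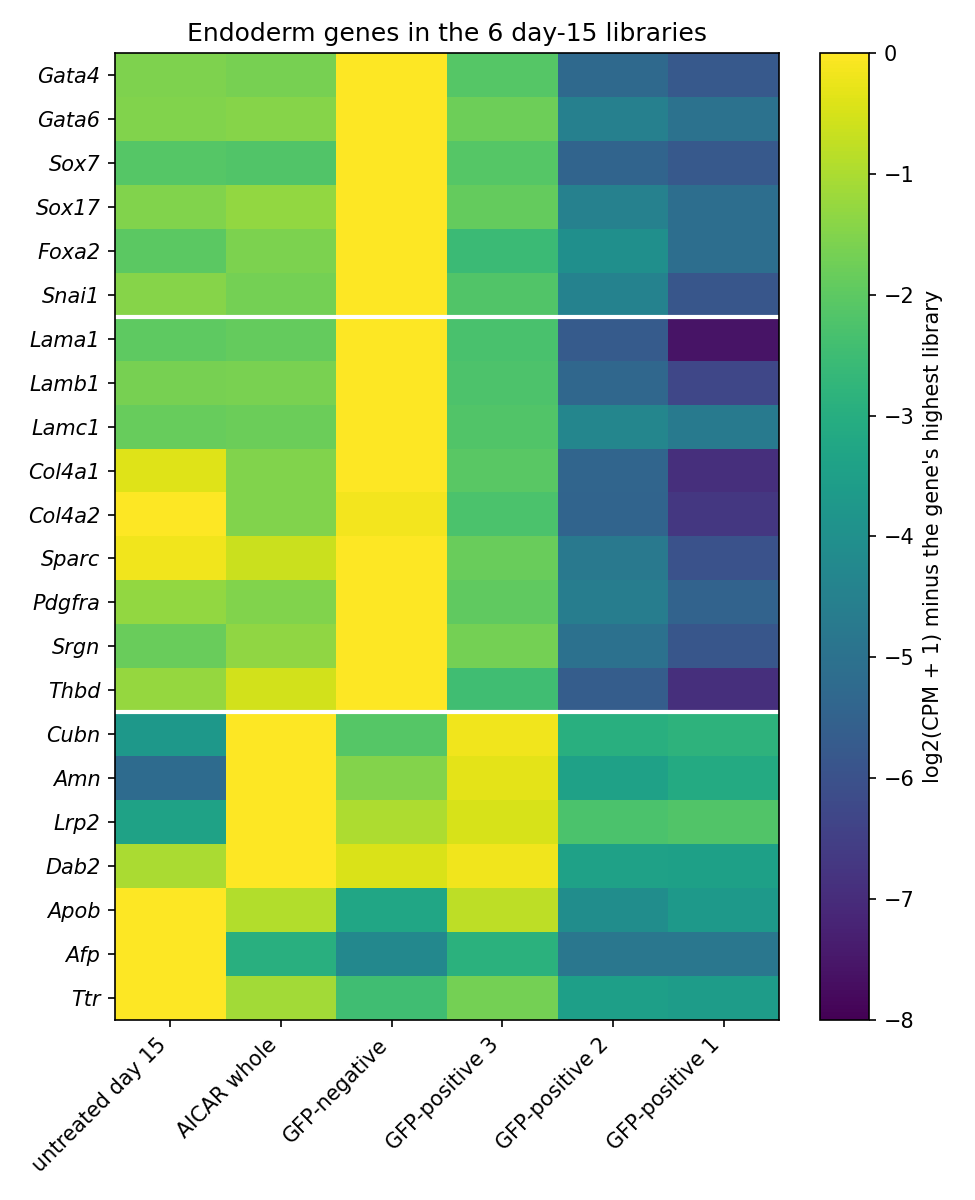
Endoderm genes in the 6 day-15 libraries, as log2(CPM + 1) minus the highest of the 6 libraries for that gene, with transcription factors at the top, parietal and basement membrane genes in the middle and visceral genes at the bottom. Yellow marks the highest library: GFP-negative for all 6 factors, whole AICAR culture for Cubn, Amn, Lrp2 and Dab2, and untreated day 15 for Apob, Afp and Ttr.

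Pluripotency lists held large shares of higher genes. General pluripotency genes had 17 of 18 members more than 2-fold higher and 0 lower, with a median log2 ratio of 2.92. Pou5f1 (Oct4), the central factor, had 3531 reads (612 CPM) against 204 (26.4 CPM), 23.1-fold (20.1 to 26.8), and ranked 146th by RPKM in the GFP-negative library. Its partner Sox2 had 275 against 14.8 CPM, 18.6-fold (15.4 to 22.7). Utf1, a chromatin factor of pluripotent cells, was 47.5-fold higher (271 against 5.70 CPM), and Tdgf1, the Nodal co-receptor, 28.3-fold (169 against 5.96). Cdh1 (E-cadherin) alone stayed within 2-fold, at 267 against 210 CPM.

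Of 18 naive genes, 5 stayed under 50 reads in both libraries. Of the 13 measured, 11 passed 2-fold upwards, with a median of 3.41. Summed over the list, however, the GFP-negative library had 1551 CPM and undifferentiated cells 5106. Klf4, described above, went the other way and was higher in the GFP-negative library than in undifferentiated cells. Zfp42, the reported gene, had 351 reads (60.8 CPM) against 42 (5.45 CPM), 11.2-fold (8.09 to 15.8), where undifferentiated cells had 435 CPM and GFP-positive cells 677, 620 and 463. Nanog had 36.9 against 3.89 CPM, with 545 in undifferentiated and 264, 256 and 206 in GFP-positive cells. Esrrb, an orphan nuclear receptor, had 77.4 against 3.24 CPM, with 413, 355 and 279 in GFP-positive cells. Each of these 3 genes was in the same order: untreated day 15, GFP-negative, GFP-positive. For Zfp42, which the GFP reports, the order of the GFP-negative and GFP-positive cells follows from how these fractions were defined. Tdh, the threonine dehydrogenase of mouse ES cells, had the largest log2 ratio of the list, 5.24 (266 against 6.74 CPM). Klf5 and Tbx3 were within 2-fold, at 79.7 against 70.8 and 49.6 against 69.6 CPM.

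Formative and primed epiblast genes passed 2-fold upwards in 14 of 15 cases and downwards in 0, with a median of 3.08. Dnmt3b, a de novo DNA methyltransferase, had 634 against 48.8 CPM, a ratio with a counting interval of 11.7 to 14.5. Pou3f1 (Oct6), a factor of the formative state, had 47.1 against 3.37 CPM (interval of the ratio 9.34 to 21.8), and Fgf5, a ligand of the post-implantation epiblast, 21.7 against 2.59, 8.35-fold (5.18 to 14.1). Otx2, a homeobox factor, was at 99.97 against 7.91 CPM. Levels of Pou3f1, Fgf5 and Dnmt3b in the GFP-negative library were also above all 3 GFP-positive libraries. These had 6.74, 26.6 and 13.4 CPM of Pou3f1, 11.7, 12.9 and 13.7 of Fgf5, and 242, 331 and 461 of Dnmt3b. Of the 16 members of the list, however, 8 lay above all 3 libraries, 5 below and 3 inside their range. The list summed to 1768.5 CPM in the GFP-negative library and 1563, 1740 and 1680 in GFP-positive cells. Day-2 sorted cells had 3326 CPM. Germline genes, several of which are active in pluripotent cells, were higher in 6 of 8 measured, such as Dazl at 23.4 against 0.519 CPM. Of the 18 members 10 stayed under 50 reads. Genes such as Dazl reached the minimum only through the GFP-negative library, so this count is partly set by the minimum.

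Genes of differentiated mesenchyme were the lowest group relative to untreated cells after the keratins. All 24 interstitial matrix genes were more than 2-fold lower, with a median of -5.59. Col3a1, a fibrillar collagen of connective tissue, had 168 reads (29.1 CPM) against 81601 (10580 CPM), 363-fold lower (312 to 425). Col1a1 had 168 against 14755 CPM, 87.8-fold lower, and Dcn, the small proteoglycan decorin, 4.33 against 519 CPM, 120-fold lower (81.0 to 185). Fn1 (fibronectin), which endoderm also secretes, showed the smallest difference among the matrix proteins of the list, at 1155.5 against 6332 CPM, 5.48-fold lower. Summed over the list, these genes made up 0.181% of reads in the GFP-negative library, 5.63% in untreated cells, 1.81% in the whole AICAR culture and 0.200% to 0.215% in GFP-positive cells. Undifferentiated cells were at 0.199%. In the GFP-negative library Fn1 alone gave 1155.5 of the 1814 CPM of the list, so the sum mostly follows this gene.

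Contractile and epithelial programmes followed. Smooth muscle genes were lower in 11 of 12 (median -3.91), with Tagln at 41.9 against 893 CPM, 21.3-fold lower, and Acta2 at 204 against 2021, 9.89-fold lower. Cardiac genes were lower in 12 of 13 (median -3.10), although untreated levels were low too, such as Tnnt2, cardiac troponin T, at 26.1 CPM against 1.21. All 14 genes of stratified epithelium were lower (median -7.01). Krt5, a basal keratin, had 20 reads against 5662, 212-fold lower (137 to 347), and Krt15 had 0 against 1839, at least 459-fold lower. Krt1, Dsg3 and Ly6d were also at 0 reads. Smooth muscle genes summed to 2726 CPM in the whole AICAR culture, 413 in GFP-negative and 100 to 159 in GFP-positive cells. Stratified epithelium genes summed to 333, 71.6 and 30.4 to 89.2 CPM in the same order. As for the matrix genes, the whole culture was above both of its fractions, and the cause of this was not tested. Hox genes, which mark the trunk axis, summed to 11.1 CPM over 26 entries against 137. Of these 26, 18 stayed under 50 reads in both libraries. The 8 counted were all lower. With so few reads in the GFP-negative library, the minimum favoured genes that are high in untreated cells.

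Simple epithelial genes differed less. Krt8, a keratin shared by endoderm and other simple epithelia, stayed within 2-fold at 301 against 459 CPM, whereas Krt19 was far lower, at 20.8 against 291 CPM. Several lists of other lineages had lower sums in the GFP-negative library: neural genes summed to 210 CPM against 461, endothelial and blood genes to 165 against 332 and trophoblast genes to 40.9 against 254. In these 3 lists 0, 3 and 3 entries were at 0 reads in the GFP-negative library. Primitive streak and early mesoderm genes instead summed to 88.0 CPM against 50.0, but Tcf15 alone gave 56.0 of the 88.0 CPM. Of the 16 members, 11 stayed under 50 reads in both libraries. Of 5 members measured 2 were higher, Tcf15 (56.0 against 0.778 CPM) and Eomes (19.9 against 4.80 CPM), and 3 were lower, T (Brachyury, 2.43 against 12.4 CPM), Wnt3 and Foxc2. Of the cadherin and mesenchymal-transition genes, 11 of 14 were lower, with Cdh11 46.1-fold lower and Cdh2 (N-cadherin) 3.30-fold lower, and the 2 higher were Snai1 and Epcam.

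**Figure D3:**
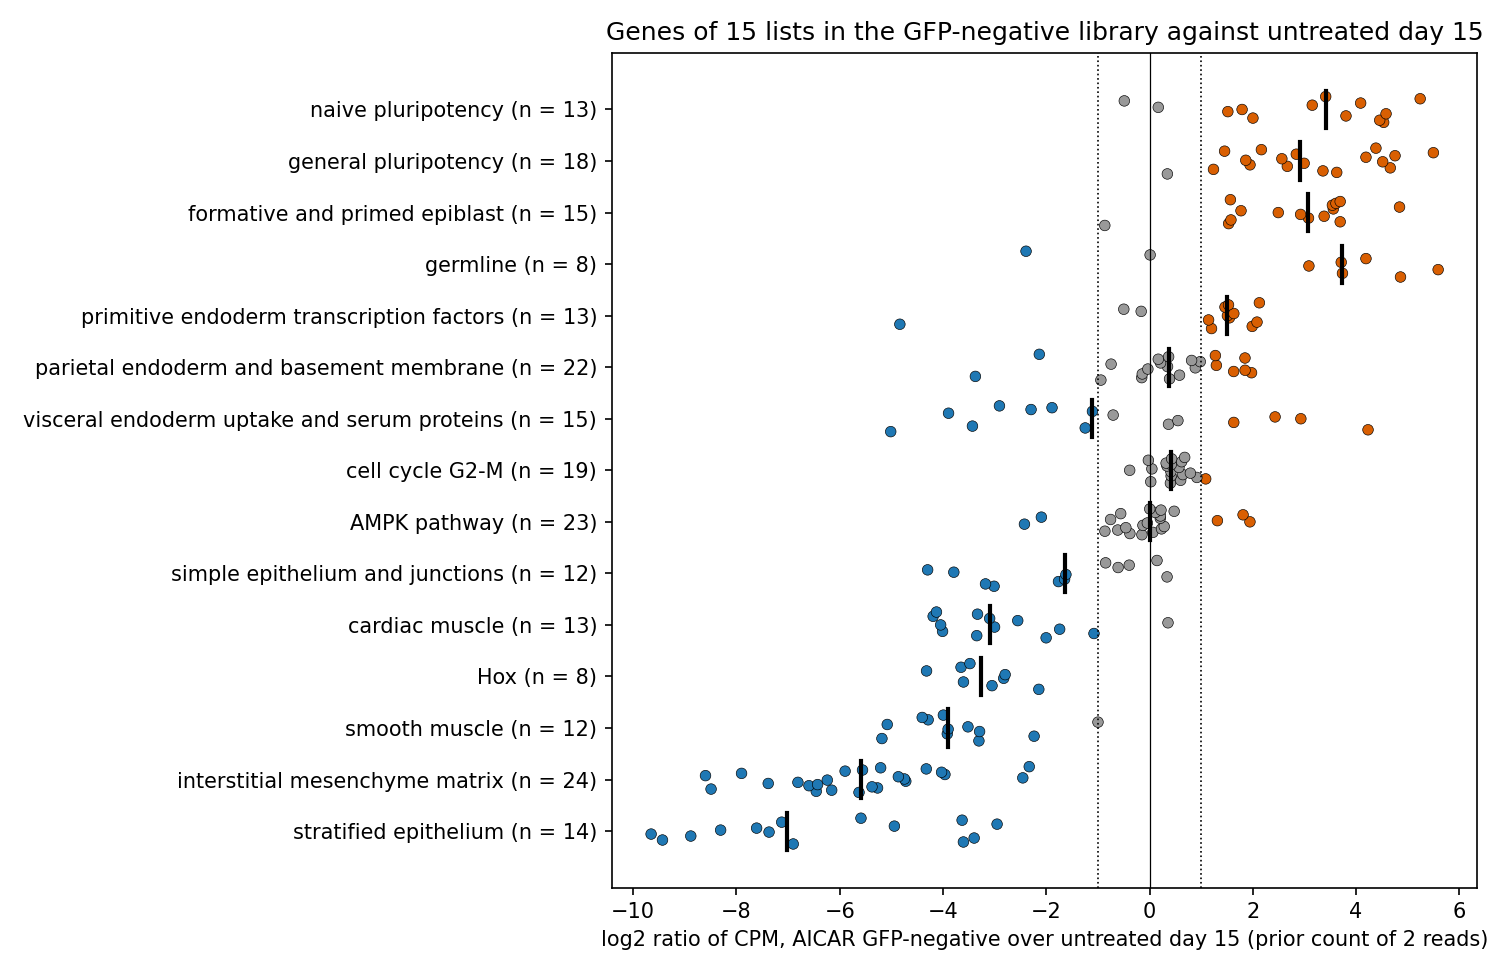
Log2 ratio of CPM, GFP-negative over untreated day 15, for every member of 15 gene lists with at least 50 reads in 1 of the 2 libraries. Orange points are more than 2-fold higher, blue more than 2-fold lower and grey within 2-fold, black bars are medians and dotted lines mark 2-fold. The pluripotency, epiblast and endoderm factor lists lie to the right, and the matrix, muscle, Hox and stratified epithelium lists lie to the left.

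The 15 genes with the largest ratios included pluripotency and germline genes, and no member of the 3 endoderm lists. Tff1, a trefoil peptide of mucosal epithelia, had 303 reads in the GFP-negative library and 2 in untreated cells, a ratio of 202 with a counting interval of 55.6 to 1679, and 0.078, 0 and 17.7 CPM in GFP-positive cells. Fam71a had 121 reads against 0, at least 53.9-fold higher, with 2.23 CPM in the whole culture. Utf1, Tcf15, a helix-loop-helix factor of epiblast cells primed for differentiation (56.0 against 0.778 CPM), and En2, a homeobox factor (35.5 against 0.519), were others. Cyp2b23 had 194 reads against 0, at least 86.4-fold higher, and was 45.1 to 103 CPM in GFP-positive cells. Hsf2bp, Hormad1 and Gpat2 are genes of germ cells, Usp26 and 2410007B07Rik completed the list, and Rex2, Zfp600, Gm13242 and Gm13247 are near-identical zinc-finger copies whose reads cannot be assigned to 1 gene with certainty. The 15 smallest ratios included keratins (Krt15, Krt1, Krt14, Krt4, Krt5, Krt17), matrix genes (Lum, Col3a1, Ogn, Col15a1, Col6a3) and Serpina3n, Epha3 and Gabrp.

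**Figure D4:**
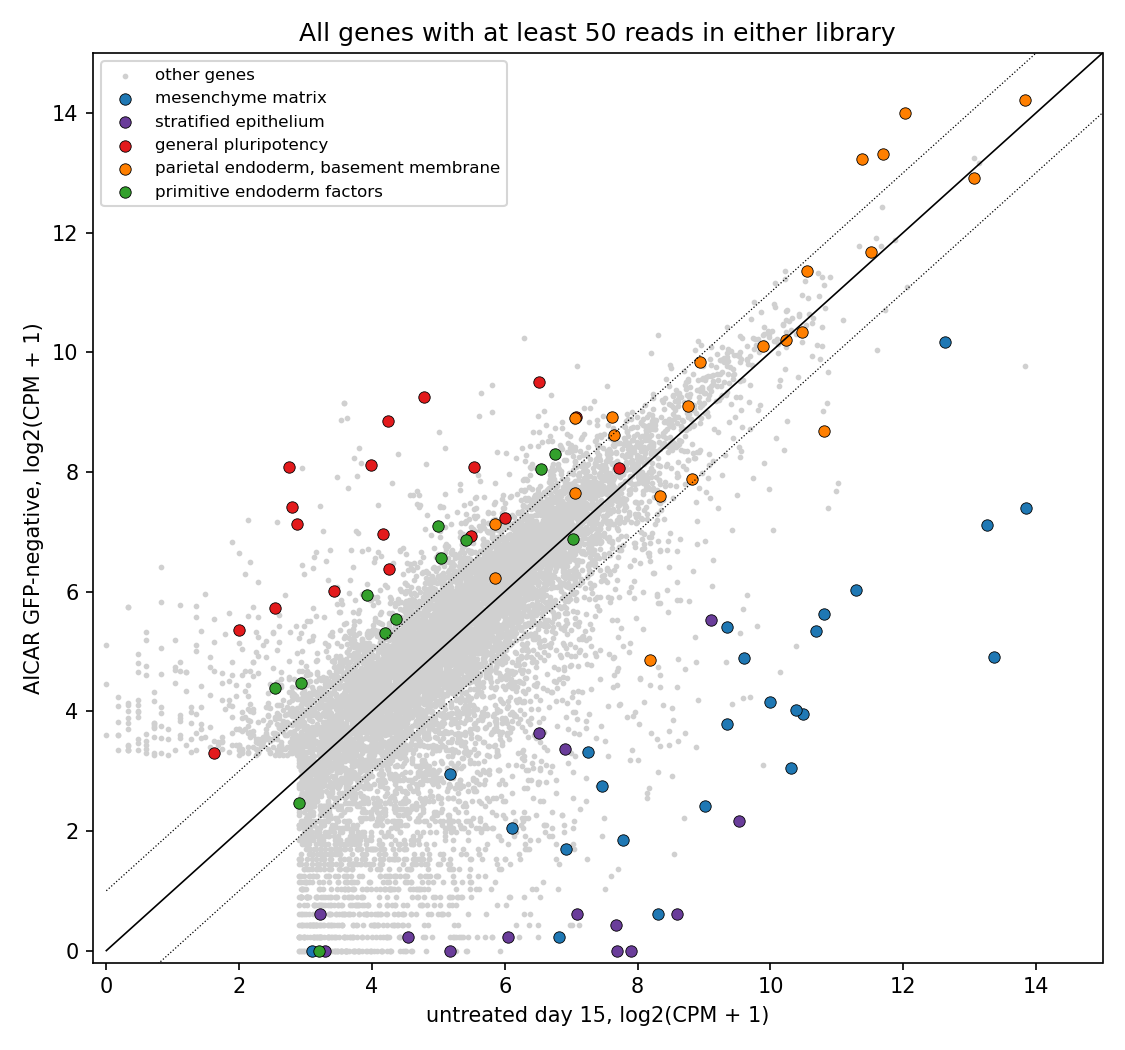
Level in the GFP-negative library against level in untreated day-15 cells, both as log2(CPM + 1), for 11352 genes with at least 50 reads in 1 of the 2 libraries. The solid line marks equal levels and dotted lines 2-fold. Laminin and collagen IV genes sit at the upper end of both axes, pluripotency genes above the dotted line and mesenchymal matrix and stratified epithelium genes below it.

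Signalling genes were mixed. Of 18 genes of FGF signalling and its ERK response, 7 were higher and 5 lower. The targets Etv5 and Spry4 were 8.55-fold and 4.82-fold higher, at 195 against 22.8 and 35.0 against 7.26 CPM, while the receptor genes Fgfr1 and Fgfr2 were 2.88-fold and 5.49-fold lower. Of 19 Nodal and BMP genes, 6 were higher and 7 lower. Nodal, its co-receptor Tdgf1 and its feedback inhibitors Lefty1 (94.9 against 7.78 CPM) and Lefty2 (52.8 against 1.56) were higher, and Bmp4, Id1 and Id3 of the BMP branch were 4.47-fold, 4.42-fold and 4.56-fold lower. Inhba, the activin A chain, was 32.9-fold lower (2.95 against 96.9 CPM).

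Of 14 retinoid genes, 1 was higher and 8 were lower. Cyp26a1, the enzyme that clears retinoic acid, was at 248 against 65.9 CPM, 3.76-fold higher (3.39 to 4.17), and Aldh1a2, which makes it, had 5 reads against 278, 41.6-fold lower. KLF genes were higher in 7 of 14, with Klf4 the highest in level of CPM, and SOX genes were higher in 4 (Sox2, Sox7, Sox17, Sox21) and lower in 4 (Sox4, Sox5, Sox6, Sox9) of 11. The AMPK list had 3 higher and 2 lower genes among 23, a share of higher genes near the background, with a median of 0.005. Prkaa2, a catalytic subunit of AMPK, was at 67.7 against 17.4 CPM, 3.90-fold higher (3.20 to 4.78), the regulatory Prkab1 at 55.3 against 22.0, and Prkaa1, the other catalytic subunit, at 43.3 against 44.6. Of 19 G2-M genes 18 stayed within 2-fold of untreated cells, and of 16 p53 and stress genes 12 did, with the cell cycle inhibitor Cdkn1a 3.61-fold lower (43.0 against 155 CPM).

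The GFP-negative library was set against the 3 GFP-positive libraries with edgeR's quasi-likelihood test, in which the lone library is assumed to vary like the others. Of 13821 genes tested, 0 were higher and 0 lower at an adjusted p of 0.05 (0% either way), and 3022 had an unadjusted p under 0.05, 1594 higher and 1428 lower. On simulated counts for 13465 genes the same fit recovered 46% of 4-fold and 6% of 2-fold changes. The simulation gave every gene the same dispersion, so these rates do not apply to genes that differ widely between replicates, such as Lama1. GFP-positive replicate 3 stood apart from replicates 1 and 2, with endoderm levels 10 or more times theirs for Lama1, Sox7 and Gata4. Replicates 1 and 2 form a sequencing project of their own in the headers. Without replicate 3 the test called many genes, but there fraction and sequencing project cannot be told apart. With the project as a term it also called genes. That fit sets the lone GFP-negative library against replicate 3 alone, and its error comes from replicates 1 and 2. DESeq2 called genes in both directions as well, so the outcome of the test depends on the setting. The counts below therefore place the GFP-negative level outside or inside the range of the 3 libraries, for genes with at least 50 reads in 1 of these 4 libraries. Of 11039 such genes, 32.5% lay above all 3 and 42.4% below. These counts are not tests.

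Of the naive genes, 15 of 17 lay below all 3 GFP-positive libraries, as did 14 of 18 general pluripotency genes, but by different amounts. Zfp42 was at 10.4% of the GFP-positive mean (587 ± 111 CPM, SD, n = 3), with a log2 fold change of -3.26 (SE 0.32). GFP reports Zfp42 and names the fractions, so a lower Zfp42 level in GFP-negative cells follows from their definition. Naive genes expressed together with Zfp42 may follow it. Nanog was at 15.3% and Esrrb at 22.2% of the mean, whereas Pou5f1 stood at 47.1% (1298 ± 158 CPM, SD, n = 3) and Sall4 at 75.1%. Klf4 was the naive gene above all 3, at 173% of 312 ± 25.8 CPM (SD, n = 3), log2 fold change 0.80, SE 0.16, edgeR adjusted p 0.139. Formative and primed genes were above all 3 in 8 of 16 and below in 5. All 19 G2-M genes were below all 3, Ccnb1 at 55.1% of 321 ± 21.3 CPM (SD, n = 3).

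Parietal and basement membrane genes were above all 3 in 20 of 22 and below in 2 (Agrn and Fbln1), and endoderm factors were above in 9 of 14 and below in 0. Against replicate 3, the GFP-positive library of the same sequencing project, the median log2 difference was 1.91 for the parietal list and 0.83 for the factors, beside -0.069 for all genes. Lama1 was 4.91-fold, Sox7 4.47-fold and Gata4 4.35-fold above replicate 3, and in edgeR their log2 fold changes against all 3 libraries were 3.75 (SE 1.69), 3.66 (SE 1.48) and 3.54 (SE 1.38), with adjusted p-values of 0.267, 0.240 and 0.231. The naive list had a median of -1.85 and the general list -0.47 against replicate 3. Of 24 mesenchymal matrix genes, 17 reached 50 reads in 1 of these 4 libraries. Of the 17, 15 lay above all 3, at low levels such as Col1a1 at 168 against 0.235, 0.773 and 44.4 CPM. Members near 0 in GFP-positive cells could reach the minimum only through the GFP-negative library, so this count is partly set by it. Summed over the list, the GFP-negative library had 1814 CPM, below the 2049, 1999 and 2152 CPM of GFP-positive cells.

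**Figure D5:**
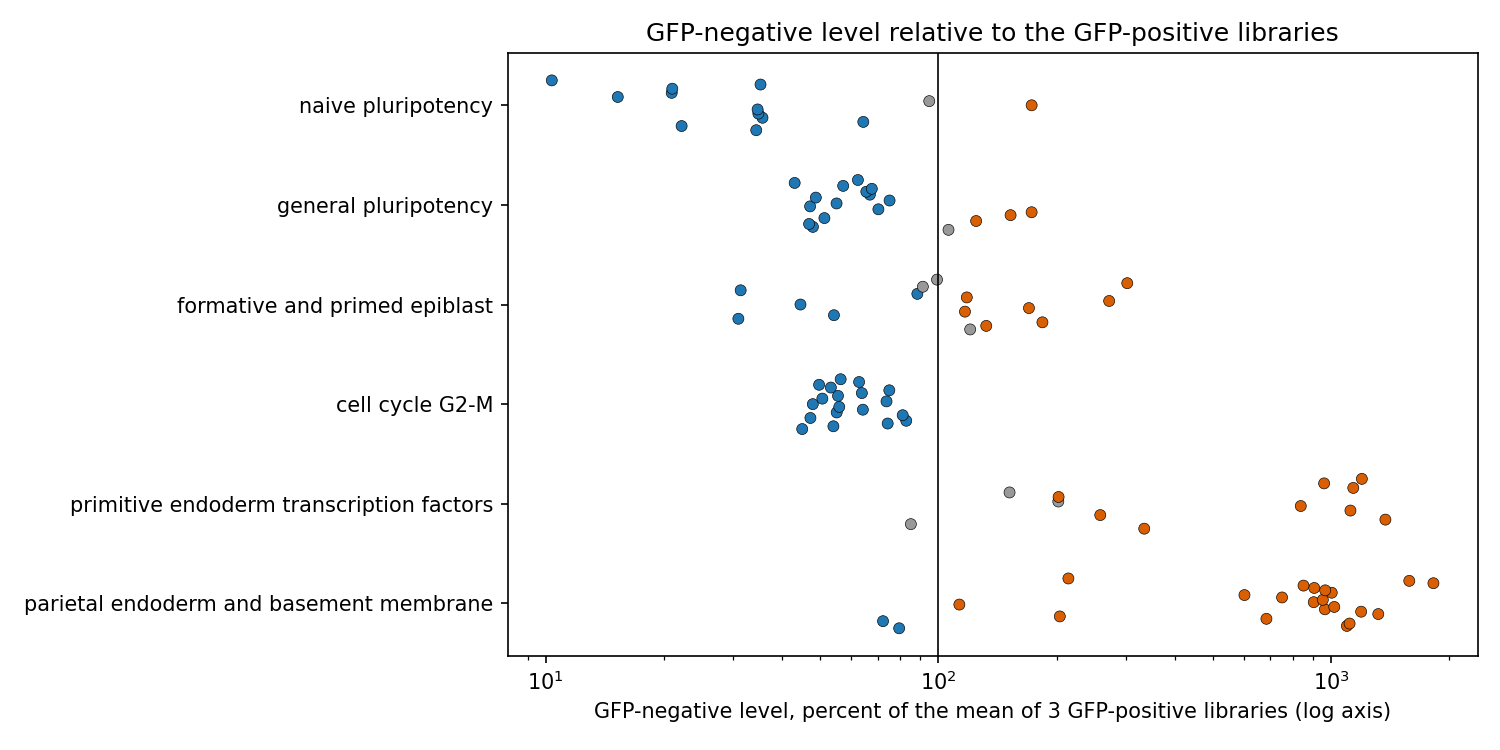
Level in the GFP-negative library as a percent of the mean of 3 GFP-positive libraries, on a log axis, for members of 6 lists with at least 50 reads in the GFP-negative or untreated day-15 library (Foxa1, at 0 reads, is left out). Orange points lie above all 3 GFP-positive libraries, blue below all 3 and grey inside their range. Naive genes reach down to 10.4% for Zfp42, and most parietal genes lie between 601% and 1821%.

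Across 10991 genes the GFP-negative library was most like GFP-positive replicate 3 (Pearson 0.948 and Spearman 0.946 of log2(CPM + 1)) and the whole AICAR culture (0.932 and 0.934), and least like untreated day 15 (0.718 and 0.747) among all 18 other libraries. Undifferentiated cells were at 0.828 and the day-2 sorted cells from which the culture started at 0.851. Genes are not independent replicates, and these values describe libraries. The labels call every sample an ES cell. Pou5f1 RNA in the GFP-negative library was above untreated day-15 cells, while Zfp42 and Nanog RNA was below every undifferentiated, GFP-positive or expanded-line library. For Zfp42, the difference from GFP-positive cells follows from how the fractions were defined.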

How the data were processed

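The deposited files, 1 per library, hold for each of 22756 RefSeq gene entries (mm9) a read count and an RPKM value (reads scaled to transcript length and library size). Per the file headers, the authors counted uniquely mapped reads with rpkmforgenes, leaving out 3′ UTRs. The submitters' processing notes name bcl2fastq, CASAVA 1.8.2, Trimmomatic 0.3.3, TopHat2 2.0.14 and Bowtie2 2.2.5, and the labels' protocols a stranded mRNA kit. Whether strand was used in counting is not given in the sources used here, so overlapping antisense genes cannot be separated.

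From the deposited counts, CPM were scaled to the total reads in genes. GFP-negative and untreated day-15 cells were compared by log2 ratio with a prior count of 2 reads, without a test. Genes needed 100 reads in 1 of the 2 libraries, or 50 for list members, and calls needed more than 2-fold. Intervals are exact at 95% and cover counting error only, since reads carry no molecular identifiers. A count of 0 was set to a floor of 3 reads in that library. The deposited RPKM values served to rank genes by length-corrected level and as an alternative scale for the ratios.

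The GFP-positive comparison used edgeR 4.0.16 (R 4.3.3) with TMM factors, filterByExpr and the quasi-likelihood test, with Benjamini-Hochberg adjustment, after a check on simulated counts. DESeq2 1.42.0, other scalings, filters, prior counts, the sequencing project as a term and leaving out each GFP-positive library were alternatives. The 3 GFP-positive libraries differed by more than sampling noise (chi-square per degree of freedom 10.49 to 51.05).

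Named genes are the 15 largest and 15 smallest ratios (entries that share a name counted once), up to 8 members a list with the largest absolute ratios, and defining markers. Members, lists and the comparison were chosen with earlier results of these data known. Rhox5 and Dub1 of the lists had no entry in the files, and a few named genes are not reported here.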

Additional observations from a re-analysis of the deposited data

Results flagged for a closer look

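In the 8 colony lines, 3 of the genes followed in every library had 1 line far from the others. The lowest Zfp42 level was 358 CPM, the highest Lama1 level 274 CPM and the highest Col4a1 level 665 CPM. Chance marks about 1 in 20 groups in this way. All 3 values were far from the GFP-negative library, which had 60.8, 16418 and 19053 CPM of these genes.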

How the results depend on the processing

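No paired analysis was possible because the comparison with untreated day 15 has 1 library on each side, and the GFP-negative library has no number that it shares with more than 1 GFP-positive library, so no replicate block could be fitted. With TMM or upper-quartile factors, prior counts of 0.5 or 5, the authors' RPKM or without joined entries, the counts of higher and lower genes and list members stayed within 1.5 times. A minimum of 20 reads gave 3105 lower genes, and of 1 read 2501 higher and 4238 lower. A 4-fold limit gave 219 higher and 1070 lower genes and 46 higher list members, against 91 at 2-fold. The ratio of each named gene was compared with its main value once for each alternative scale or selection. Of these comparisons, which count a gene several times, 1228 stayed within counting error and 18 moved beyond it, and 0 reversed. Against GFP-positive cells, 0 genes passed either way with TMM or RLE factors, and 2 higher genes without a filter. Leaving out 1 GFP-positive library gave 0 to 2209 higher and 0 to 1744 lower genes, the highest counts without replicate 3. The project term gave 562 and 430, and DESeq2 560 and 630. The cause was not tested. Depth limits genes near the floor, where 3 reads correspond to at most 0.520 CPM in the GFP-negative library.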

Other observations

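The GFP-negative library held the highest level of 78 genes by at least 2-fold over each of the other 18 libraries, a set chosen after its values were seen. Untreated day 15 had 979 such genes, the whole AICAR culture 22, the day-2 sorted cells 14 and every other library 0 to 3. For 42 of the 78 the next highest library was the whole AICAR culture, for 22 untreated day 15 and for 12 a GFP-positive library. Of the 78, 15 belong to the lists above, among them Lama1, Lamb1, Lamc1, Gata4, Gata6, Sox7, Sox17, Foxa2, Snai1 and Pdgfra. Of the rest, 2 receptor genes are given here. Kit, the stem cell factor receptor, was at 625.1 CPM in GFP-negative cells, 189 in the whole culture, 103 in untreated day-15 cells, 54.7, 50.2 and 155 in GFP-positive cells and 97.9 in undifferentiated cells. Lifr, the LIF receptor, was at 440 CPM against 97.1 in untreated cells and 158, 148 and 194 in GFP-positive cells.

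Other genes of the set, picked after their values were seen, were as follows. Adamts9, a matrix protease, was at 1243 CPM against 315 in untreated cells and 336 in the whole culture. F3, tissue factor, was at 603 CPM, 2.01-fold above untreated cells, and Nog, the secreted BMP antagonist noggin, at 153 against 34.1. Gkn2, a gastrokine of stomach epithelium, was at 341 CPM against 114 in untreated cells and 0, 0.843 and 66.4 in GFP-positive cells. Epas1, a hypoxia-inducible factor, was at 534 against 146. Each of these 5 genes was highest in the GFP-negative library by the rule that chose the set, so the order is a description.

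Myl3, a myosin light chain of slow muscle and ventricle, stood furthest above its next library among the genes named here, at 85.9 CPM against 6.74 in untreated cells, 12.7-fold, although 12 of 13 cardiac genes measured were lower than in untreated cells.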
